A study of Mus musculus with 18 samples.

Results

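The nuclear-encoded respiratory chain genes were defined here as the rows of the count table whose symbol begins with Nduf followed by a, b, c, s or v, with Uqcr, with Cox4 to Cox8 or with Atp5, or is Sdha, Sdhb, Sdhc or Sdhd. Pseudogene symbols were left out and a summed count of at least 180 over the 18 libraries was required. The rule took 86 of the 43346 rows, out of 92 symbols that fit before the minimum. Members were chosen by symbol and by the summed count, a rule that does not use the groups. The rule was set with earlier results of these data known. By symbol, 44 genes belong to complex I, 4 to complex II, 8 to complex III, 13 to complex IV and 17 to complex V. Of the 86, 77 encode structural subunits and 9 do not. The 9 are 7 assembly factors of complex I (Ndufaf1 to Ndufaf7) together with Atp5s and Atp5sl. Atp5sl is named Dmac2 in the GENCODE M21 annotation and is counted with complex V by its symbol alone. Ndufa4 is counted with complex I by its symbol, although its product is known as a subunit of complex IV, and Cox7a2l is counted with the structural subunits of complex IV, although its product is known as a factor that joins complexes. The 6 symbols below the minimum were Cox4i2 (1 count), Cox6a2 (6 counts), Cox8b (10 counts), Ndufa4l2 (1 count), Cox7b2 and Cox8c (0 counts each), and the members nearest to it were Cox6b2 with 673 counts, Atp5s with 2179 and Ndufb2 with 2348.

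RNA had been sequenced from epithelial cells of small intestine (SI) and large intestine (LI) crypts of C57BL/6 mice. Their genotype was Lgr5_eGFP_Iris_creERT2 (Lgr5eGFP-Ires-CreERT2 in the study's methods), which reports the endogenous Lgr5 promoter through GFP. The methods give the background of the study's mice as mixed or C57/B6. Lgr5 marks the stem cells of the crypt base. The mice were untreated and 8 to 20 weeks old by the labels, and all 6 groups share genotype and handling. For RNA sequencing the methods give a wider age range, with an older upper limit, and both male and female mice. Live Epcam+ cells were sorted on GFP brightness as a stand-in for position in the crypt, with high GFP for centre cells, medium GFP for border cells and low GFP for cells beyond row 3 (row >3). Each site and level had 3 libraries, the mouse behind a replicate number is not given in the sources used here, and p-values measure the spread between these libraries.

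The respiratory chain sits in the inner mitochondrial membrane. Complex I (NADH dehydrogenase) and complex II (succinate dehydrogenase, also an enzyme of the tricarboxylic acid cycle) feed electrons through ubiquinone to complex III (the cytochrome bc1 complex). Cytochrome c then carries them to complex IV (cytochrome c oxidase), and complex V (ATP synthase) uses the proton gradient to make ATP. The mitochondrial genome encodes a few core subunits of complexes I, III, IV and V, while complex II and all other subunits come from nuclear genes. In the intestinal crypt, stem cells, Paneth cells and differentiating progeny are known to differ in their use of glycolysis and oxidative phosphorylation.

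Promoter windows of 300 bases, from 250 bases before to 50 after the transcript start, were taken from RefSeq on GRCm38.p6 (mm10) and were found for 72 of the 86 genes. The windows below belong to 2 genes called in comparisons of the groups whose windows hold a searched motif (Cox6a1 and Ndufaf4) and to the pair of complex IV isoform genes at the ends of the range (Cox6b2 and Cox7a1, the lowest and the highest log2 fold change from SI centre to SI row >3). They are read 5′ to 3′ on the strand of the gene, and capitals mark matches to a searched motif on either strand. The genes are Cox6a1 (ENSMUSG00000041697, minus strand, window chr5:115348909-115349208), Ndufaf4 (ENSMUSG00000028261, plus strand, window chr4:24897833-24898132), Cox6b2 (ENSMUSG00000051811, minus strand, window chr7:4753045-4753344) and Cox7a1 (ENSMUSG00000074218, plus strand, window chr7:30183921-30184220).
Cox6a1: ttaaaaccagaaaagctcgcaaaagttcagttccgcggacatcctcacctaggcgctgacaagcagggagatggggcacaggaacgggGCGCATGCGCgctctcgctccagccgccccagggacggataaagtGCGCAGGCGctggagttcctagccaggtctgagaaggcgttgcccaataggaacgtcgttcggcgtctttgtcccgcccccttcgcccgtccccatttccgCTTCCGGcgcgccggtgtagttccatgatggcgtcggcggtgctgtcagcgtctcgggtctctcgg
Ndufaf4: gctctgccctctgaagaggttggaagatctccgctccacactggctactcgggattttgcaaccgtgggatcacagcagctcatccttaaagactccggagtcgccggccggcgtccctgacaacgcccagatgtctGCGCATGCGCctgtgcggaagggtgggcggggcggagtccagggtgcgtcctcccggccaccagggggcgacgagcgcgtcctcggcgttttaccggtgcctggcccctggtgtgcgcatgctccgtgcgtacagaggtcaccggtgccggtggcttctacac
Cox6b2: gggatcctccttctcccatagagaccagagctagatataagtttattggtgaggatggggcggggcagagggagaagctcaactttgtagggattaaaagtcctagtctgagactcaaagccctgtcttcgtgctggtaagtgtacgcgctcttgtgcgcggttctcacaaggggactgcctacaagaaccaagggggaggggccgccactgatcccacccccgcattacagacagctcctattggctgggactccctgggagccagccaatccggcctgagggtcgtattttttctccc
Cox7a1: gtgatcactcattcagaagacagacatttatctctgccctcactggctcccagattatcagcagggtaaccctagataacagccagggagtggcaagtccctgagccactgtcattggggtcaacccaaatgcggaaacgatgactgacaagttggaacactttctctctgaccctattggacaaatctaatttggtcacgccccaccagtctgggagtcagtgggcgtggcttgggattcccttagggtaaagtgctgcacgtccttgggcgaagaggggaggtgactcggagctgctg

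The motifs searched on both strands were the NRF1 core GCGCANGCG, the ETS core CCGGAAG (the family of GABPA, also called NRF2) and the YY1 core AAGATGGCG, factors with a known part in the expression of mitochondrial genes. The NRF1 core was in 21 of the 72 windows (29.2%), against 7.96% of all 20592 RefSeq windows of the same length. The ETS core was in 16 (22.2%, against 2265 of the 20592) and the YY1 core in 7 (9.72%, against 1.79%), and 35 of the 72 held none of the 3. The Cox6a1 window held the NRF1 core from -162 to -154 with an overlapping match on the other strand to -153, again from -117 to -109, and the ETS core on the minus strand of the gene from -16 to -10, counted from the transcript start. In the Ndufaf4 window the NRF1 core stood from -113 to -105, with an overlapping match on the other strand to -104, and the windows of Cox6b2 and Cox7a1 held none of the 3 motifs. The windows of Ndufv3 and Atp5b, also called in comparisons of the groups and not shown, held none of the 3 either. By complex, the NRF1 core was in 10 of 39 windows of complex I, 2 of 3 of complex II, 2 of 5 of complex III, 1 of 11 of complex IV and 6 of 14 of complex V. These matches describe letters in a window and are not measured binding sites.

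The libraries held 8312093 to 31940965 counts (median 21934851), of which the 86 genes took 0.533 to 1.06%. One set of libraries stood apart before any comparison. All 3 libraries labelled SI replicate 3 carried Car1, an enzyme gene of colonic surface cells, at 82.1 CPM (counts scaled to library size with TMM factors) in the centre, 1140 in the border and 1939 in row >3. The other 6 SI libraries held 0 to 10.4 CPM of Car1 and the LI libraries 123 to 1348. The libraries of SI replicate 3 also had the highest share of counts from mitochondrial genes, 30.2 to 32.5% against 17.2 to 27.0% in the other 15. Lgr5 itself fell in CPM from centre to row >3 within every replicate number at both sites. Whether these 3 libraries hold material other than SI cells was not tested, so values that include them may not describe the SI alone. The main counts from SI centre to SI row >3 and between the sites are therefore also given without SI replicate 3. The epithelial markers Epcam, Cdh1, Krt8 and Vil1 summed to 2408 to 5995 CPM in every library, the 7 stromal and muscle markers to 0.365 to 17.4 CPM, with Acta2 at 0 to 0.226 CPM, and the 6 immune markers to 3.80 to 32.3 CPM.

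Levels between genes were compared per length, on the TPM scale (counts per kilobase of exon, brought to the same total in each library) and averaged over the 18 libraries. One row, Gm23935, a gene annotated as a miRNA, took 62.2 to 79.9% of the per-length total of a library. Without it the levels of the 86 genes were 2.95 to 3.22 times higher and kept nearly the same order (Spearman rho 0.9996 over the genes), with Cox8a (388.8) and Atp5b (386.3) in turned places. The highest level per length of the 86 was that of Atp5a1 (197.9), the alpha subunit of ATP synthase, followed by Atp5b (124.4), its catalytic beta subunit, and Cox8a (124.2), a small subunit of complex IV. With the length of the longest transcript in place of all exon bases the order turned, to Atp5b (264.2), Atp5a1 (222.9), Cox4i1 (184.6), Cox5b (158.7), Atp5h (141.2) and Cox8a (134.3). By all exon bases, the levels per length within complex I ran from 0.797 for Ndufb2 to 71.2 for Ndufb9, both accessory subunits. Within complex II they ran from 15.8 for Sdhc, a membrane anchor, to 51.7 for Sdha, the flavoprotein. Complex III ran from 28.7 for Uqcrc2, a core protein, to 88.3 for Uqcrb, and complex IV from 1.24 for Cox6b2 to Cox8a. The median level per length of the subunits was 21.2 in complex I, 35.5 in complex II, 54.0 in complex III, 41.5 in complex IV and 36.6 in complex V, and that of the 9 non-subunits was 4.46. The spread within complexes I, IV and V was far wider than that between the medians of the 5 complexes.

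**Figure D1:**
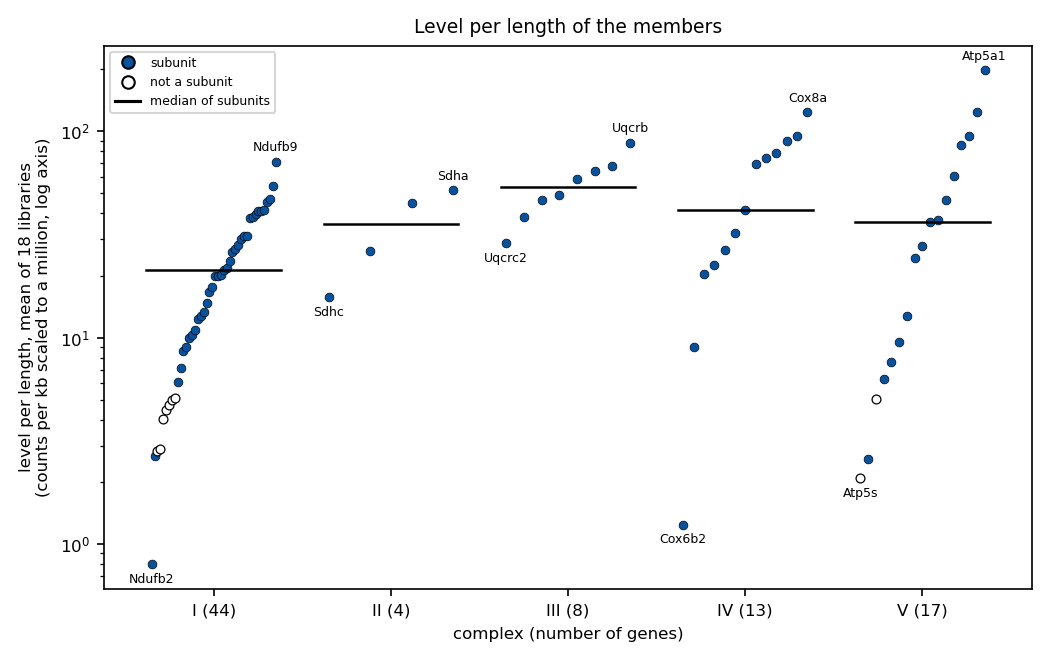
Level per length of each of the 86 genes (TPM from counts per kilobase of exon, mean of 18 libraries, log axis), by complex on the horizontal axis. Filled points are structural subunits, open points are the 9 genes that encode none, and lines are medians of the subunits (21.2, 35.5, 54.0, 41.5 and 36.6 for complexes I to V).

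The summed CPM of the 86 genes was lowest in SI centre cells and highest in LI row >3 cells. In SI centre libraries 1 to 3 it was 5333, 5321 and 5815 CPM, in SI border libraries 4990, 5600 and 7945, and in SI row >3 libraries 6167, 6315 and 8359. In LI centre libraries it was 5979, 8016 and 9069 CPM, in LI border libraries 6454, 8709 and 9557, and in LI row >3 libraries 8436, 9776 and 10960. The group means were 5490 ± 282, 6178 ± 1560, 6947 ± 1225, 7688 ± 1571, 8240 ± 1604 and 9724 ± 1263 CPM in that order (SD, n = 3 each). Neighbours in this order overlapped in every case, while the SI centre and SI row >3 libraries did not overlap. LI centre and LI row >3 libraries did overlap, since LI centre replicate 3 lay above LI row >3 replicate 1. Within each replicate number the sum was higher in row >3 than in centre cells, in 3 of 3 SI pairs and 3 of 3 LI pairs. In bulk libraries such as these, fewer cells of a type and less RNA per cell cannot be told apart.

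**Figure D2:**
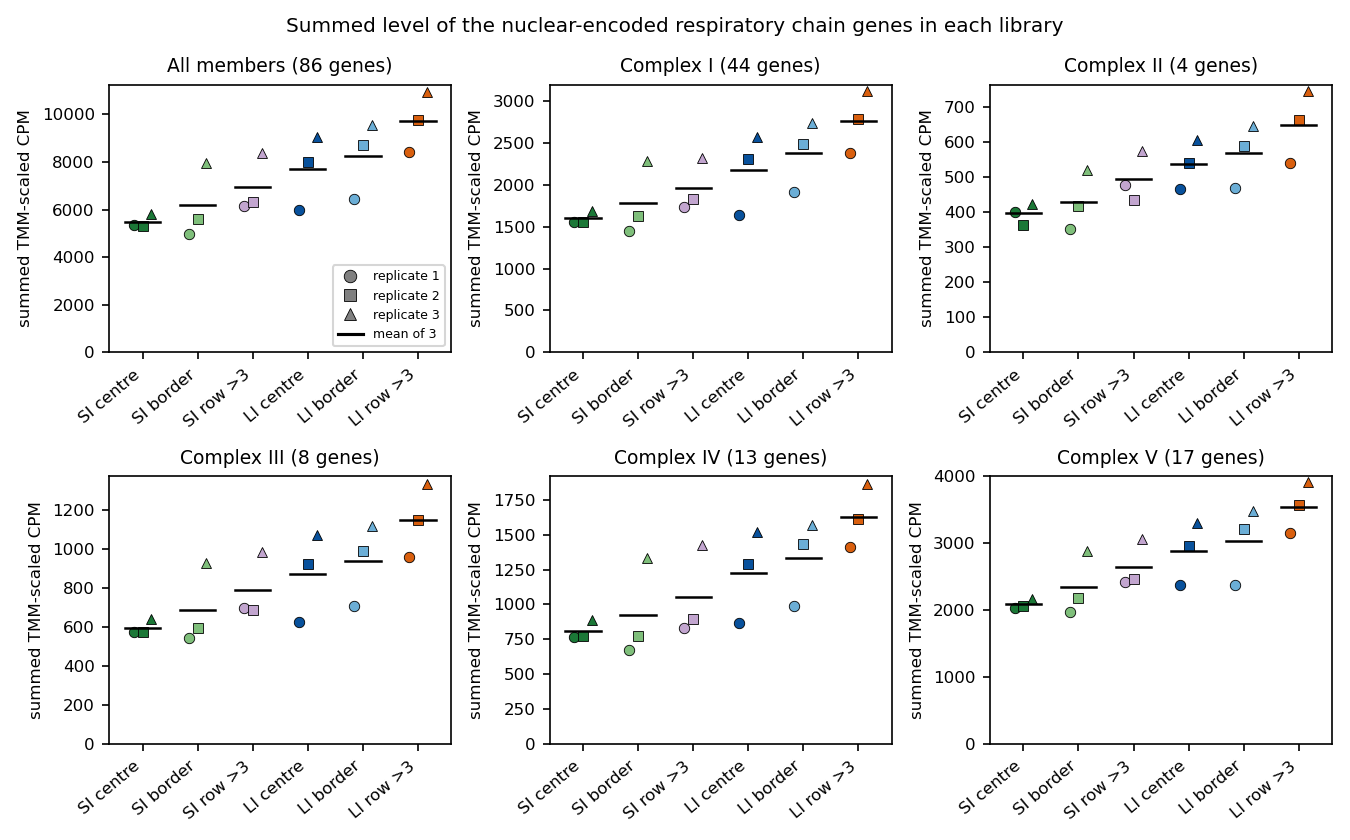
Summed TMM-scaled CPM of the genes of each panel's set in every library, by group on the horizontal axis. Marker shapes are replicate numbers and bars are means of 3 libraries, and the sum of all 86 genes goes from a mean of 5490 in SI centre to 9724 in LI row >3 cells.

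All 5 complexes showed the same order of the extremes. Complex I summed to 1601 ± 78.9 CPM in SI centre and 2756 ± 370 in LI row >3 cells (SD, n = 3). Complex V, in which Atp5a1 and Atp5b carry much of the sum, went from 2089 ± 74.2 to 3544 ± 376 CPM. Without Atp5a1 and Atp5b the remaining 84 genes still went from 4314 ± 247 to 7746 ± 1111 CPM. The 13 subunits encoded in the mitochondrial genome followed another pattern. Their sum was 16220, 14840 and 32810 CPM in SI centre libraries, 20180, 12450 and 31630 in SI row >3, 19330, 24040 and 20900 in LI centre and 15000, 26230 and 25830 in LI row >3 libraries. The high SI values were those of SI replicate 3, and centre and row >3 libraries overlapped at both sites. Without blocks, edgeR's quasi-likelihood test and DESeq2 called 0 of the 13 in each comparison of levels or sites at an adjusted p under 0.05, and 0 had an unadjusted p under 0.05. With the replicate number as a block, mt-Nd6 fell from SI centre to SI row >3 (-0.59, adjusted p = 0.00496, edgeR), but 0 of the 13 passed with blocks and without SI replicate 3. Without SI replicate 3 and without blocks, 2 of the 13 were lower in the SI than in the LI in border cells and 2 in row >3 cells, and 0 in centre cells.

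Row >3 cells of the SI were compared with centre cells to ask how respiratory chain transcripts change as Lgr5 falls. Of the 86 genes, 2 rose and 1 fell in edgeR's test without blocks. The median log2 fold change of the members was 0.30, 73 of 86 lay above 0, and 24 had an unadjusted p under 0.05 (27.9%, against 23.9% of all genes), a count that was 10 (11.6%, against 21.6%) without SI row >3 replicate 3, 13 and 15 without SI centre replicates 1 and 2, and 24 to 27 without any one of the others. The median over all 26717 genes tested was 0.00. Of the 10223 genes with a mean above 5 CPM, 4528 had an unadjusted p under 0.05, a larger share than that of the members. The shares called, 2.33% higher and 1.16% lower, lay below those of all genes tested, of which 7.35% were called higher and 5.82% lower. Libraries with the same number deviated together within a site (r 0.358 to 0.703), and when the replicate number was added as a blocking term for each site 35 of the 86 rose (40.7%, against 12.4% of all genes) and 2 fell (2.33%, against 10.5%). The same fit called 2689 of the 10223 genes above 5 CPM higher and 2202 lower. A block over all libraries called 19 members higher and 1 lower, and 2504 and 2018 of all 26717 genes. DESeq2 without blocks called 10 higher (11.6%, against 8.72% of all genes) and 1 lower (1.16%, against 6.91%). Of the 10223 genes above 5 CPM it called 1939 higher and 1504 lower, each a larger share than that of the members.

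The gene that rose with the smallest adjusted p was Ndufv3, a small accessory subunit at the NADH-oxidising arm of complex I. It had 33.3, 32.6 and 46.4 CPM in SI centre and 58.1, 68.1 and 86.3 CPM in SI row >3 libraries. Every row >3 library was above every centre library, and the log2 fold change was 0.92 ± 0.22 (SE, adjusted p = 0.0079, edgeR). Cox6a1, the broadly expressed form of subunit 6A of complex IV, had 38.3, 41.4 and 47.1 CPM in centre and 56.8, 60.7 and 111 CPM in row >3 libraries. Its groups did not overlap either (log2 fold change 0.85 ± 0.25, adjusted p = 0.0239, edgeR), and the highest of these values was that of SI replicate 3. The Cox6a1 call held in 12 of 18 alternatives and was lost without SI centre replicate 1 (log2 fold change 0.78, adjusted p = 0.103, edgeR) or SI centre replicate 2 (0.83, adjusted p = 0.081), where the size stayed alike, and without SI row >3 replicate 3, where the log2 fold change was 0.49 (adjusted p = 0.194). The Ndufv3 call was lost in 1 of 18 alternatives, without replicate 2 at all levels and sites (log2 fold change 0.85, adjusted p = 0.141, edgeR).

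Cox6b2, known as the testis form of subunit 6B of complex IV, was the gene that fell. It had 1.69, 2.502 and 3.44 CPM in SI centre, 0.444, 1.51 and 0.9998 in SI border and 0.199, 0.420 and 0.155 CPM in SI row >3 libraries. The row >3 values rest on 6, 11 and 2 counts, against 43, 56 and 75 counts in the centre. No library of row >3 reached any centre library, the log2 fold change was -3.18 ± 0.56 (adjusted p = 0.000543, edgeR), and the call held in all 18 alternatives (adjusted p 4.07e-07 to 0.0229). Its broadly expressed partner Cox6b1 had 51.4, 45.9 and 56.2 CPM in centre and 63.5, 63.9 and 90.2 in row >3 libraries, with a log2 fold change of 0.50 ± 0.25 (adjusted p = 0.242) that passed with blocks (0.48, adjusted p = 0.00502, edgeR).

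Cox7a1, known as the heart and muscle form of subunit 7A of complex IV, moved the other way. It had 1.49, 0.134 and 3.49 CPM in SI centre, 0.555, 0.439 and 19.3 in SI border and 7.61, 3.78 and 19.0 CPM in SI row >3 libraries, the lowest of these on 3 counts. Row >3 libraries were above all centre libraries, with SI replicate 3 the highest of each group. The log2 fold change was 2.52 ± 1.15 (adjusted p = 0.201, edgeR) without blocks, 2.75 ± 0.49 (adjusted p = 0.000347) with blocks, and 2.75 (adjusted p = 0.00801) without the libraries of SI replicate 3. The broadly expressed Cox7a2 had 16.8, 15.01 and 24.5 CPM in centre and 19.1, 23.3 and 36.7 in row >3 libraries, overlapping groups that did not pass with blocks (0.47, adjusted p = 0.0599).

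**Figure D3:**
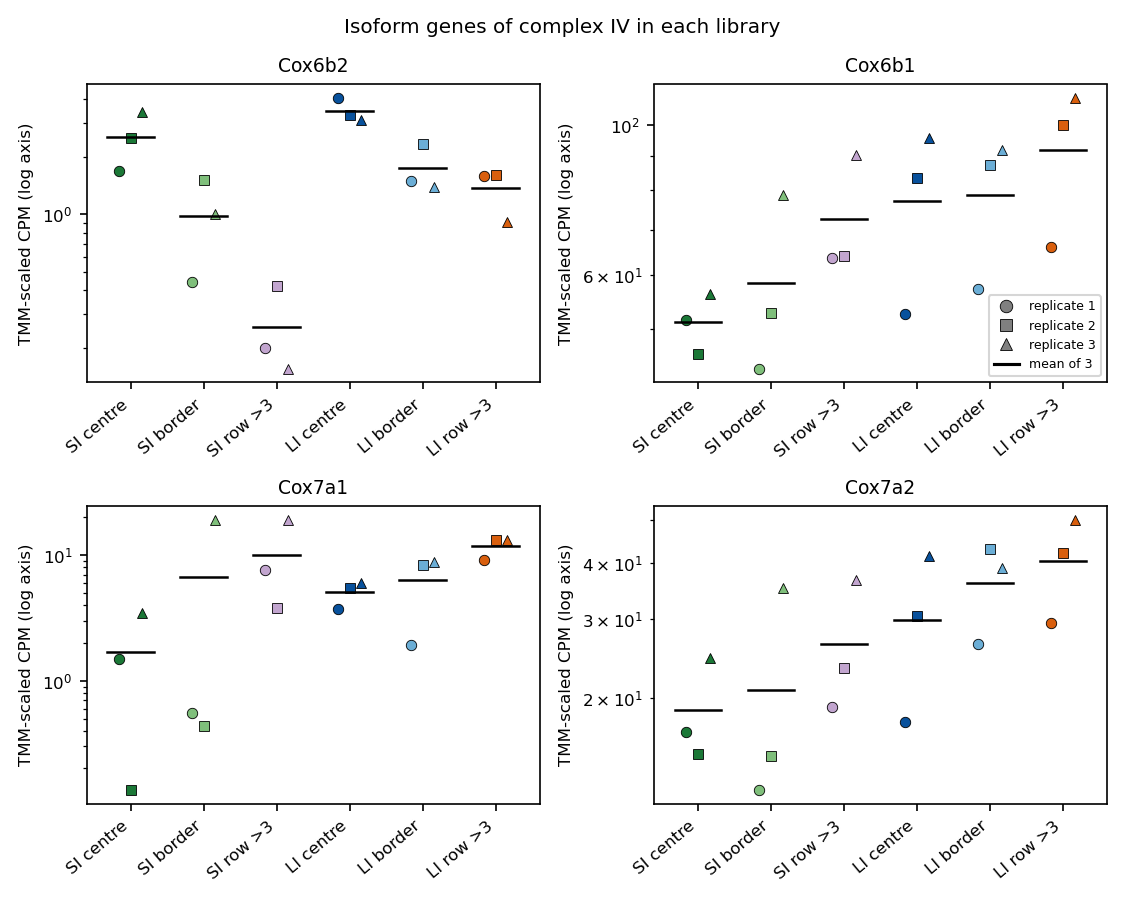
TMM-scaled CPM (log axis) of isoform genes of complex IV in every library, by group, with marker shapes for replicate numbers and bars for means of 3. Cox6b2 falls below 0.5 CPM in all 3 SI row >3 libraries, while Cox7a1 is between 3.78 and 19.0 CPM there.

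With blocks, the members that rose from SI centre to SI row >3 came from every complex, 17 of 44 in complex I, 2 of 4 in complex II, 4 of 8 in complex III, 5 of 13 in complex IV and 7 of 17 in complex V. Among the named subunits, Sdhb, the iron-sulfur subunit of complex II, rose by 0.57 ± 0.11 on the log2 scale (adjusted p = 0.000518, edgeR). Uqcrfs1, the Rieske protein of complex III, rose by 0.59 ± 0.12 (adjusted p = 0.000808), and Cox5a, a regulatory subunit of complex IV, by 0.72 ± 0.13 (adjusted p = 0.000363). Atp5a1 rose by 0.38 ± 0.09 (adjusted p = 0.00264) and Atp5b by 0.36 ± 0.09 (adjusted p = 0.00372), and Ndufs1, the large iron-sulfur subunit of complex I, by 0.29 ± 0.09 (adjusted p = 0.0319, edgeR). Of these named genes only Ndufs1 did not pass without SI replicate 3 (0.28, adjusted p = 0.0628, edgeR). Of the genes for the c subunit of the ATP synthase ring, Atp5g3 rose (0.53 ± 0.12, adjusted p = 0.00279), while Atp5g1 (0.42 ± 0.16, adjusted p = 0.0589) and Atp5g2 (0.01 ± 0.20, adjusted p = 1, edgeR) did not pass. Several other subunits did not pass either. Ndufv1, which binds NADH, had 0.22 ± 0.13 (adjusted p = 0.286), Sdha 0.23 ± 0.10 (adjusted p = 0.112) and Cox4i1 0.28 ± 0.15 (adjusted p = 0.229, edgeR).

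The subunits and the other members differed in these values, a difference that was not tested. Of the 77 subunits, 70 had a log2 fold change above 0 in row >3 against centre cells of the SI (median 0.34), and 34 rose with blocks. Of the 9 non-subunits, 3 lay above 0 (median -0.05), and with blocks only Ndufaf3 rose (0.76 ± 0.24, adjusted p = 0.0278) and Ndufaf2 fell (-0.53 ± 0.18, adjusted p = 0.0386, edgeR). Without SI replicate 3 the value of Ndufaf2 was -0.36 and did not pass (adjusted p = 0.19), while that of Ndufaf3 did (0.93, adjusted p = 0.0161, edgeR). Both are assembly factors of complex I. Ndufaf2 shares 65.6% of its exon bases with an antisense gene, B230220B15Rik, and since the strand of counting is not given, its reads may come from either. The median log2 fold change without blocks was 0.27 in complex I, 0.35 in complex II, 0.38 in complex III, 0.42 in complex IV and 0.26 in complex V.

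Without the libraries of SI replicate 3 the differences were smaller at the median. In the fit with blocks and without SI replicate 3, 23 genes rose (26.7%, against 13.1% of all genes), all of them among the 35, and 2 fell (2.33%, against 10.6%), Cox6b2 and Cox7a2l. The median log2 fold change was then 0.21, with 66 of 86 above 0. Sdhb rose by 0.49 ± 0.12 (adjusted p = 0.00405, edgeR), Cox5a by 0.61 ± 0.15 (adjusted p = 0.00399) and Cox6a1 by 0.57 ± 0.14 (adjusted p = 0.00617). With all libraries the block called 2689 of the 10223 genes above 5 CPM higher, a share close to the 26.7% of members here. Cox7a2l encodes a factor that joins complexes III and IV into supercomplexes. It had 58.2, 59.2 and 64.6 CPM in SI centre and 34.3, 46.3 and 66.6 in SI row >3 libraries, so that only SI replicate 3 lay at the level of the centre.

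Counted by libraries, 33 of the 86 genes (38.4%) had all SI row >3 values above all centre values, against 12.8% of all genes. Of the 10223 genes above 5 CPM, 2523 did. The median of the members stood above that of all genes under every scaling, although its own sign turned with TPM. Among genes above 5 CPM, the 85 members exceeded the median gene by 0.27 on the log2 scale with TMM factors, by 0.26 with library size alone, by 0.27 with the total of nuclear protein-coding genes and by 0.24 with TPM, where the member median itself was -0.21 and the gene median -0.45. That sign rested on Gm23935, since TPM without this row gave a member median of 0.15 and a gene median of -0.09.

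In the same SI libraries the sorted populations changed in their marker genes. Of 8 stem cell markers 6 fell from centre to row >3 without blocks and 8 with blocks, and their sum went from 2895 to 7289 CPM in the centre to 514 to 1273 CPM in row >3. The 7 goblet cell markers (5 higher and 1 lower without blocks) summed to 755 to 10640 CPM in centre and 32500 to 51650 in row >3 libraries. The 12 absorptive markers, 4 of them higher without blocks and 10 with blocks, summed to 193 to 509 CPM in centre and 839 to 3592 in row >3 libraries. Car1 is in this list and gave 1939 of the 3592 CPM, in SI row >3 replicate 3. In SI row >3 replicates 1 and 2 Car1 was at 2.89 and 10.4 CPM, with sums of 2108 and 839 CPM. Paneth markers (0 of 6 called) summed to 1689 to 7840 CPM in centre and 215 to 4592 in row >3, enteroendocrine markers (1 of 6 higher without blocks and 4 with blocks) to 18.4 to 282 and 85.3 to 587, and tuft markers (1 of 5 higher in both fits) to 24.2 to 366 and 77.9 to 321 CPM. The 4 epithelial markers rose too, 3 without blocks and 4 with blocks, with a median log2 fold change of 0.81 and sums of 2408 to 3056 CPM in centre and 5084 to 5995 in row >3 libraries. In the fit without SI replicate 3 or blocks, 8 stem cell markers fell, 6 goblet markers rose and 1 fell, and 6 absorptive, 3 enteroendocrine, 5 tuft and 1 of the Paneth markers rose. The part of these shifts in the respiratory chain values was not tested.

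The same comparison in the LI gave differences of like size at the median but no call without blocks. Of the 86 genes, 82 had a log2 fold change above 0 (median 0.33, against 0.00 over all genes tested). By edgeR 0 were called and 13 had an unadjusted p under 0.05 (15.1%, against 6.96% of all genes), and 0.0187% of all genes were called, while DESeq2 called 0 members and 0.307% of all genes. Of the 10223 genes above 5 CPM, 1275 had an unadjusted p under 0.05 by edgeR. Leaving out 1 library moved the 13 to between 4 without LI centre replicate 1 (4.65%, against 4.15% of all genes) and 30 without LI centre replicate 3 (34.9%, against 7.94%), with 7 without LI row >3 replicate 3. With the replicate block within each site, 9 rose (10.5%, against 1.28% of all genes) and 1 fell (1.16%, against 1.31%). Of the 10223 genes above 5 CPM, this fit called 325 higher and 301 lower. A block over all libraries called 0 of the 86 and 0.131% of all genes. Among genes above 5 CPM the members exceeded the median gene by 0.31 to 0.35 on the log2 scale over the 4 scalings. All LI row >3 values lay above all centre values for 23 members (26.7%, against 7.79% of all genes and 1651 of the 10223 genes above 5 CPM).

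The 9 genes that rose with blocks in the LI were Ndufb10, Ndufb7 and Ndufv3, accessory subunits of complex I, Ndufs4, an accessory subunit needed for a stable complex I, Sdhb, Uqcrfs1, Uqcrq, a small subunit of complex III, Cox5a and Cox8a. Ndufb10 had 49.9, 77.0 and 88.0 CPM in LI centre and 112, 108 and 129 CPM in LI row >3 libraries, groups that did not overlap (log2 fold change with blocks 0.72, adjusted p = 0.00699, edgeR). Uqcrq had 75.3, 111 and 131 CPM in centre and 178, 163 and 184 in row >3 libraries, also without overlap (0.76, adjusted p = 0.0145). Ndufv3 had 36.0, 47.0 and 52.0 CPM in centre and 100, 59.2 and 69.3 in row >3 libraries, where replicate 1 was the highest (0.75, adjusted p = 0.0207, edgeR). All 9 were also among the 35 that rose with blocks in the SI, that is 100% of the LI list and 25.7% of the SI list. Of all 86 members, 40.7% rose with blocks in the SI, and 26.7% did so without SI replicate 3. The overlap of the sites over all genes was not counted, so these shares have no background to be set against. Without SI replicate 3 the shared genes were 7, or 77.8% of the LI list and 30.4% of the 23 SI genes, since Uqcrq (0.30, adjusted p = 0.196, edgeR) and Cox8a (0.38, adjusted p = 0.0678) did not pass in the SI. The SI and LI comparisons share no library. Across the 86 genes their log2 fold changes had a Spearman rho of 0.615, a description over genes that are not independent.

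Cox6b2 was the member that fell in the LI with blocks. It had 4.06, 3.29 and 3.11 CPM in LI centre, 1.49, 2.33 and 1.39 in LI border and 1.60, 1.61 and 0.912 in LI row >3 libraries, so that every border and row >3 library was below every centre library. The log2 fold change from centre to row >3 was -1.32 ± 0.41 (adjusted p = 0.456, edgeR) without blocks and adjusted p was 0.0416 with blocks. Cox7a1 had 3.71, 5.46 and 6.05 CPM in LI centre and 9.12, 13.3 and 13.3 in LI row >3 libraries, which did not overlap, but did not pass with blocks (1.26, adjusted p = 0.0807). Subunits again differed from the rest, with 76 of 77 above 0 (median 0.36) against 6 of 9 non-subunits (median 0.16), a difference that was not tested. By complex the median log2 fold change was 0.30 in complex I, 0.39 in complex II, 0.37 in complex III, 0.43 in complex IV and 0.32 in complex V. Among the LI markers, 0 of 8 stem cell markers fell by edgeR without blocks (7 had an unadjusted p under 0.05, DESeq2 called 2) and 7 fell with blocks. Their sum was 1918 to 2214 CPM in LI centre and 713 to 1275 in LI row >3 libraries. The goblet markers summed to 7435 to 12130 CPM in centre and 16160 to 25210 in row >3, and the absorptive markers to 428 to 613 and 1140 to 1867 CPM, each without overlap. Of the absorptive sums, Car1 gave 123 to 232 CPM in LI centre and 795 to 1348 CPM in LI row >3 libraries. By edgeR without blocks, 0 goblet, absorptive, Paneth, enteroendocrine or tuft markers were called. With blocks 1 of 7 goblet markers fell and 0 rose, and 2 of 12 absorptive and 1 of 6 enteroendocrine markers rose. Paneth and tuft markers gave 0 calls with blocks. The part of these shifts in the LI values was not tested.

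**Figure D4:**
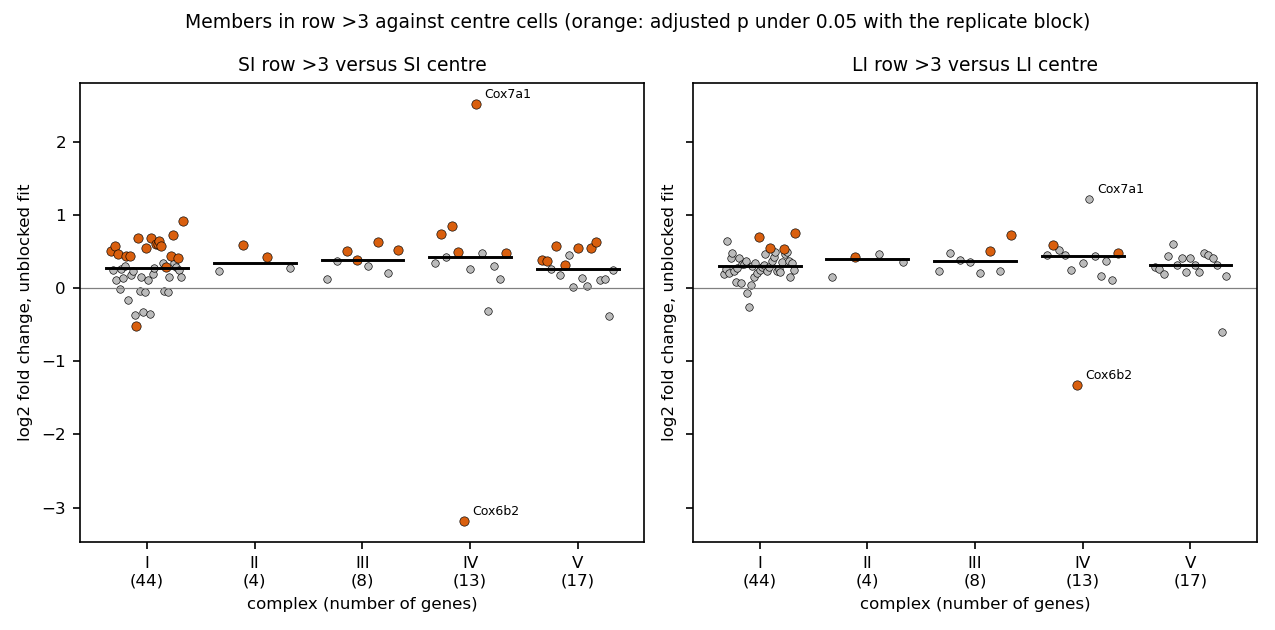
Log2 fold change of each of the 86 genes in row >3 against centre cells, in SI and LI panels, by complex on the horizontal axis. Orange points have an adjusted p under 0.05 in the fit with the replicate block (37 genes in the SI, 10 in the LI), and most genes lie above 0 in both panels, with Cox6b2 the lowest.

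Whether the change from centre to row >3 differed between the sites was tested as an interaction. By edgeR 0 of the 86 genes and 0.0% of all genes were called, DESeq2 called 0 of the 86 and 0.565% of all genes, and edgeR with blocks 0 of the 86 and 2.32% of all genes. Without blocks 1 gene had an unadjusted p under 0.05, Cox6b2 with -1.86 ± 0.73 (adjusted p = 0.561). The median interaction over the members was -0.01. With blocks and without SI replicate 3, 1 gene was called, Cox7a2l (adjusted p = 0.0213, edgeR), or 1.16% of the members against 7.63% of all genes.

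Border cells gave no call against centre cells for these genes with 3 libraries a group. In the SI, 65 of 86 genes had a log2 fold change above 0 in border against centre cells (median 0.16, -0.22 with TPM, where the median gene was at -0.35, and 0.12 with TPM without Gm23935). By edgeR 0 were called, 3 had an unadjusted p under 0.05, and 0.0112% of all genes were called. DESeq2 called 0 members and 0.782% of all genes, and edgeR with blocks 0 members (16 at an unadjusted p under 0.05) and 2.32% of all genes. Without blocks the 3 were Cox6b2 (-1.26 ± 0.48, adjusted p = 0.412), Ndufb8 (0.52 ± 0.25, adjusted p = 0.546) and Ndufv3 (0.47 ± 0.22, adjusted p = 0.552, edgeR). In the LI, 73 of 86 lay above 0 (median 0.11), 0 were called by edgeR or DESeq2, 1 had an unadjusted p under 0.05, and 0.0% of all genes were called. That gene was again Cox6b2 (-1.03 ± 0.41, adjusted p = 1, edgeR). For Cox6b2 the border means stood between the centre and row >3 means at both sites. Without SI replicate 3 the SI median turned to -0.04, with 38 of 86 above 0, 48 below and 0 at an unadjusted p under 0.05. Leaving out 1 library at a time gave SI medians down to -0.08 and LI medians down to -0.07.

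The SI was then compared with the LI at each Lgr5 level. Most members were lower in the SI, namely 84 of 86 at the centre, 81 at the border and 85 beyond row 3, with median log2 fold changes of -0.48, -0.43 and -0.52, against 0.00 over all genes tested. Relative to the median gene above 5 CPM the members lay lower by 0.39 to 0.41 in the centre, 0.36 to 0.38 in the border and 0.42 to 0.49 in row >3 over the 4 scalings. Calls without blocks were few. In centre cells 2 were lower (2.33%, against 0.805% of all genes), in border cells 0 by edgeR (1.76% of all genes were called in either direction) and 2 lower by DESeq2, Ndufaf4 and Ndufc2 (2.33%, against 1.64%), and in row >3 cells 2 were lower (2.33%, against 1.32%). Of the 10223 genes above 5 CPM, 163 were lower in centre cells, 314 in border cells by DESeq2 and 297 in row >3 cells. In border and row >3 cells these shares were larger than those of the members. Unadjusted p under 0.05 was reached by 41 members in centre (47.7%, against 14.5% of all genes), 27 in border (31.4%, against 13.9%) and 45 in row >3 cells (52.3%, against 15.7%). Without replicate 2 at all levels and sites, the member counts were 4 in centre (4.65%, against 6.38% of all genes), 3 in border (3.49%, against 7.08%) and 3 in row >3 cells (3.49%, against 8.09%). Single libraries moved the member counts widely as well. Over the fits that left out 1 library they ran from 7 without LI centre replicate 3 (8.14%, against 10.1% of all genes) to 65 without LI centre replicate 1 in centre cells, from 7 without SI border replicate 1 (8.14%, against 10.6%) to 61 without SI border replicate 3 in border cells, and from 15 without LI row >3 replicate 3 (17.4%, against 11.7%) to 58 without SI row >3 replicate 3 in row >3 cells.

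In centre cells the genes called were Atp5b and Cox6a1. Atp5b had 529, 501 and 531 CPM in SI and 698, 756 and 866 CPM in LI centre libraries, which did not overlap (log2 fold change -0.57 ± 0.15, adjusted p = 0.0449, edgeR). Cox6a1 had 38.3, 41.4 and 47.1 CPM in SI and 63.1, 80.3 and 99.3 CPM in LI centre libraries, again without overlap (-0.94 ± 0.25, adjusted p = 0.0492). Both calls lay close to the threshold. Atp5b passed in 4 of 16 alternatives and lost its call without any one of the 6 centre libraries (log2 fold change -0.64 to -0.48, adjusted p 0.0528 without LI centre replicate 1, 0.132 and 0.226 without LI centre replicates 2 and 3, and 0.144, 0.182 and 0.0652 without SI centre replicates 1, 2 and 3, edgeR). Cox6a1 passed in 8 of 16 and lost its call without LI centre replicate 2 (0.125) or 3 (0.246) or SI centre replicate 1 (0.2) or 2 (0.176), at log2 fold changes of -0.94 to -0.76. Of the 86, 36 had all SI centre values below all LI centre values (41.9%, against 9.84% of all genes and 2000 of the 10223 genes above 5 CPM).

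In row >3 cells the genes called were Ndufaf4, an assembly factor of complex I, and Cox6b2. Ndufaf4 had 16.2, 19.6 and 21.7 CPM in SI and 28.4, 35.7 and 34.6 CPM in LI row >3 libraries, which did not overlap (-0.78 ± 0.19, adjusted p = 0.0177, edgeR). Cox6b2, with the values above, was lower in SI by 2.31 ± 0.61 on the log2 scale, without overlap (-2.31, adjusted p = 0.0297). The Ndufaf4 call was lost without LI row >3 replicate 2 (0.106) or 3 (0.0902) or SI row >3 replicate 1 (0.169), at log2 fold changes of -0.73 to -0.67, and that of Cox6b2 without LI row >3 replicate 1 (0.0638) or 2 (0.126) or SI row >3 replicate 1 (0.238) or 3 (0.0631), at -2.20 to -2.05. Non-overlapping lower values in the SI were found for 37 members in row >3 cells (43.0%, against 8.69% of all genes) and for 10 in border cells (11.6%, against 8.58%). Of the 10223 genes above 5 CPM, 1694 had such values in row >3 cells and 1412 in border cells. In border cells that share was larger than that of the members.

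The SI replicate 3 libraries, with their Car1 signal, lay nearer to the LI for many members, and the site difference was called more often without them. In centre cells 12 of the 86 members were then lower (against 6.39% of all genes), in border cells 20 (23.3%, against 4.4%) and in row >3 cells 24 (27.9%, against 5.36%), with none higher. Of the 10223 genes above 5 CPM, 1341 were lower in centre cells, a share close to that of the 12 members. In row >3 cells the 24 came from complexes I (8), II (1), III (3), IV (8) and V (4). Cox4i1, the main regulatory subunit of complex IV, shows the pattern, with 143, 141 and 246 CPM in SI and 269, 275 and 306 CPM in LI row >3 libraries. Only SI replicate 3 came near the LI values, and the log2 fold change was -0.68 ± 0.25 (adjusted p = 0.166, edgeR) with it and -0.93 (adjusted p = 0.000865) without it. Uqcr10, a small subunit of complex III, had 23.6, 29.1 and 60.8 CPM in SI and 53.3, 86.0 and 89.3 CPM in LI row >3 libraries (without SI replicate 3 -1.47, adjusted p = 0.000857, edgeR). For Cox7a1 in border cells, at 0.555, 0.439 and 19.3 CPM in SI and 1.95, 8.39 and 8.88 CPM in LI libraries, the direction itself turned on SI replicate 3. Its log2 fold change was 0.19 ± 1.03 (adjusted p = 1, edgeR) with that library and -3.67 (adjusted p = 0.0148) without SI replicate 3.

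In border cells same-numbered libraries of the 2 sites also deviated together (r 0.184 to 0.271). There a block by replicate number over all libraries called 19 members lower in the SI (22.1%, against 1.97% of all genes and 473 of the 10223 genes above 5 CPM). They came from complexes I (6), II (1), III (4), IV (3) and V (5). Cox7b, a subunit of complex IV, had 46.9, 62.7 and 117 CPM in SI and 105, 146 and 175 CPM in LI border libraries (log2 fold change with blocks -0.96, adjusted p = 0.0019, edgeR). Each SI library was below the LI library of the same number. Ndufc2, an accessory subunit of complex I, had 19.2, 20.9 and 24.3 CPM in SI and 33.7, 51.3 and 62.1 in LI border libraries, without overlap (-1.17, adjusted p = 0.00822). Sdhd, a membrane anchor of complex II, had 30.1, 47.1 and 58.3 CPM in SI and 49.7, 103 and 112 in LI border libraries, where only SI replicate 3 and LI replicate 1 crossed (-0.95, adjusted p = 0.00852, edgeR). Without blocks and without SI replicate 3, Cox7b passed (-1.32, adjusted p = 0.00726), while Ndufc2 (-1.24, adjusted p = 0.118) and Sdhd (-1.13, adjusted p = 0.0917, edgeR) did not.

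By complex, the median log2 fold change of SI against LI ran from -0.42 in complex V to -0.64 in complex III in centre cells, from -0.35 in complex V to -0.54 in complex III in border cells, and from -0.45 in complex II to -0.63 in complex IV in row >3 cells. Paneth cells occur in the SI and not in the normal LI, and 4 of 6 Paneth markers were higher in SI than LI at every level (6, 5 and 5 without SI replicate 3), with sums that did not overlap (215 to 7840 CPM against 0 to 12.5 summed). The lowest SI sums, 556 and 215 CPM, were those of SI replicate 3 in border and row >3 cells. Stem cell markers summed to 2895 to 7289 CPM in SI centre against 1918 to 2214 in LI centre libraries, without overlap, and 1 of 8 was called higher in the SI at each level (4, 4 and 3 in centre, border and row >3 cells without SI replicate 3). Much of that gap was Olfm4, with 3995, 3821 and 856 CPM in SI centre and 0, 4.08 and 1.22 in LI centre libraries. In centre cells 6 of the 8 had a log2 fold change above 0. Of the 12 absorptive markers, 2 were called higher in the SI in centre cells and 6 each in border and row >3 cells, with 0 lower, and the summed level ran from 193 to 3592 CPM in the SI and from 428 to 1867 in the LI. The highest SI sum was that of SI row >3 replicate 3, where Car1 gave 1939 CPM. In the LI libraries Car1 gave 123 to 1348 CPM. Without SI replicate 3, 4 absorptive markers were called lower in the SI at each level beside 2, 5 and 6 higher. Goblet and tuft markers gave 0 calls between the sites by edgeR with all libraries and without blocks, with at most 3 goblet and 2 tuft markers at an unadjusted p under 0.05 and at most 1 and 2 called by DESeq2 at any level. A block over all libraries called 1 of 5 tuft markers higher in SI border cells. It also called 1 of 7 goblet markers higher in SI centre cells, where same-numbered libraries of the sites did not deviate together in all pairs. Without blocks and without SI replicate 3, 4 of 7 goblet markers were lower and 1 higher in SI centre cells and 1 was higher in border cells, while 3 of 5 tuft markers were lower in centre cells and 3 were higher and 1 lower in border and in row >3 cells alike. The part of these cell types in the site difference was not tested.

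**Figure D5:**
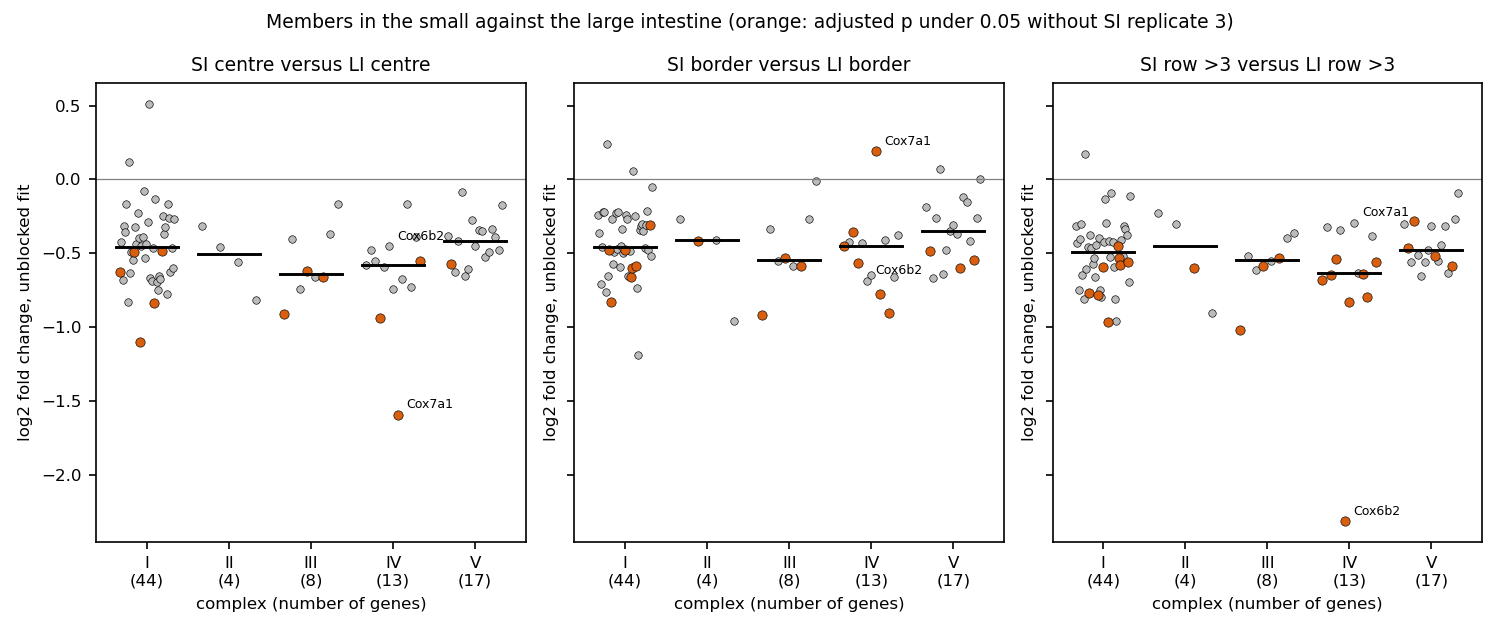
Log2 fold change of each of the 86 genes in SI against LI cells at each Lgr5 level, by complex on the horizontal axis, with all libraries. Orange points have an adjusted p under 0.05 without the libraries of SI replicate 3 (12 genes in the centre panel, 20 in the border panel and 24 in the row >3 panel), and nearly all genes lie below 0.

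Genes around the respiratory chain were counted from lists for each pathway. Of all genes tested in this comparison, 7.35% were called higher and 5.82% lower without blocks, and 12.4% and 10.5% with blocks. From SI centre to SI row >3, 2 of 12 genes for cytochrome c and carriers rose without blocks and 7 with blocks, among them Cycs, cytochrome c itself (0.85 ± 0.21, adjusted p = 0.00786, edgeR), and Vdac2, a pore of the outer membrane (0.67 ± 0.21, adjusted p = 0.0357). Leaving out SI replicate 3, Cycs passed without blocks and Vdac2 did not (0.61, adjusted p = 0.101, edgeR). Of 19 genes of the tricarboxylic acid cycle and pyruvate dehydrogenase 3 rose without blocks and 9 with blocks. They included Ogdh (0.88 ± 0.18, adjusted p = 0.00225) and Mdh2 (0.71 ± 0.14, adjusted p = 0.00115, edgeR). Of 35 assembly factors outside the rule 0 were called by edgeR without blocks (4 had an unadjusted p under 0.05 and DESeq2 called 2), and 3 rose and 1 fell with blocks. With blocks and without SI replicate 3, 6 carriers rose and 1 fell, 8 tricarboxylic acid cycle genes rose, and 3 of the assembly factors rose and 1 fell.

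Of the 15 genes of the glycolysis list 6 rose and 1 fell without blocks, and 11 rose and 1 fell with blocks, with a median log2 fold change of 0.71 without blocks. Pfkp, a phosphofructokinase, rose by 2.48 ± 0.31 (adjusted p = 7.35e-05, edgeR), and Ldha, the lactate dehydrogenase subunit that favours lactate formation, by 1.11 ± 0.19 (adjusted p = 0.000466). The other subunit gene Ldhb fell (-3.51 ± 0.96, adjusted p = 0.0119, edgeR). With blocks and without SI replicate 3, 9 rose and 2 fell. Among 15 regulators of mitochondrial gene expression 2 rose and 2 fell without blocks, 4 rose and 4 fell with blocks, and 4 rose and 3 fell with blocks and without SI replicate 3. Of those called without blocks, Esrra (0.66 ± 0.21, adjusted p = 0.0372) and Ppara (1.11 ± 0.35, adjusted p = 0.0376), both nuclear receptors that act on energy metabolism, rose. Esrrg, a relative of Esrra (-2.22 ± 0.27, adjusted p = 3.52e-05), and Tfam, the packaging and transcription factor of mitochondrial DNA (-0.77 ± 0.20, adjusted p = 0.012, edgeR), fell. These 4 regulators, Pfkp, Ldha and Ldhb were also called without blocks and without SI replicate 3.

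In the LI, 0 of the 109 genes of these lists and the mitochondrially encoded subunits were called from centre to row >3 by edgeR without blocks, while 19 reached an unadjusted p under 0.05 (6.96% of all genes did) and 1 passed in DESeq2. With blocks, where 1.28% of all genes were called higher and 1.31% lower, 3 of 12 for cytochrome c and carriers rose, Cycs (0.56), Cyc1 (0.53) and Vdac3 (0.70). In the tricarboxylic acid cycle list 4 rose and 1, Pdha1, fell, in glycolysis 6 rose, and among the regulators Ppargc1b and Esrra rose and Esrrg fell (-1.10, adjusted p = 0.0085, edgeR). Between the sites, with all libraries, 1 gene of the tricarboxylic acid cycle list was lower in the SI at each level, Suclg1 in centre (-0.80 ± 0.21, adjusted p = 0.0498), Fh1 in border (-0.86 ± 0.19, adjusted p = 0.0228) and Idh3a in row >3 cells (-0.85 ± 0.21, adjusted p = 0.0203, edgeR). In row >3 cells Pfkp was higher (1.41 ± 0.30, adjusted p = 0.0102) and Pgk1 lower in the SI (-0.63 ± 0.16, adjusted p = 0.0276), and Esrrg was lower (-1.38 ± 0.27, adjusted p = 0.00367, edgeR). In border cells, where blocks over all libraries applied, 6 of 12 carriers and 6 of 19 tricarboxylic acid cycle genes were lower in the SI with blocks. So were 1 of 15 glycolysis genes, 1 of 35 assembly factors and 0 of 15 regulators, against 1.97% of all genes. Leaving out SI replicate 3, the counts without blocks were larger, as were those of all genes (6.39%, 4.4% and 5.36% lower in centre, border and row >3 cells). Then 7, 9 and 11 of 19 tricarboxylic acid cycle genes, 6, 8 and 7 of 12 carriers and 7, 7 and 8 of 15 glycolysis genes were lower in the SI in centre, border and row >3 cells, in that order.

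Some members share sequence with other genes, so that their reads are assigned with less certainty. Of the 86, 30 share exon bases with another annotated gene and 46 share runs of 50 bases with the transcript of another gene, 13 of them over more than 20% of the transcript. Ndufaf2 (80.9%) and Ndufs3 (39.7%) shared most of these 50-base runs. Of the genes the comparisons turn on, Cox6b2, Cox7a1, Ndufaf4, Atp5a1, Uqcrq and Ndufs4 shared none, while Cox7a2l shared 17.7%, Cox6a1 7.18%, Ndufv3 1.17% and Atp5b 0.857%. The exons of Atp5a1 overlap by 129 bases with Haus1 on the opposite strand.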

How the data were processed

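Per the labels and the study's methods, the authors dissociated crypts with TrypLE, sorted live Epcam+ cells by GFP, amplified at least 270 pg of RNA with a stranded SMART-Seq kit, sequenced pairs of 100 nt, aligned to mm10 and counted reads per gene with STAR; the deposited table holds raw counts per gene and library. For the annotation release and the counting strand: not given in the sources used here. The deposited size-factor normalised values (signal) were not used. All 86 gene identifiers were in GENCODE M21.

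The members and all lists were chosen with earlier results of these data known. Counts were tested with edgeR 4.0.16 (R 4.3.3), TMM factors, a mean count above 0 (26717 genes), glmQLFit with its robust option, 1 fit of 6 groups (12 residual degrees of freedom) and Benjamini-Hochberg adjustment over all genes, with calls at an adjusted p under 0.05. The fit was tested on simulated data, with an outcome that is not given here. CPM were computed with TMM factors. Same-numbered libraries deviated together within sites (r 0.358 to 0.703 over 10223 genes above 5 CPM) and between sites in border cells (0.184 to 0.271), but not in all pairs for centre (0.0196 to 0.314) or row >3 cells (-0.0296 to 0.332), so the replicate number was used as a block in the former only. The ranges between sites overlap among the 3 levels, so they cannot decide whether the numbers pair the sites. Alternatives were DESeq2 1.42.0, other factors and filters, blocks, single libraries left out, and, added after seeing the data, edgeR's legacy fit, the block without SI replicate 3 and the scalings. Genes were named by a rule of up to 5 called members per direction and comparison (up to 3 by unadjusted p where fewer than 3 were called), the highest and lowest level per length in each complex, core subunits and tissue-restricted isoforms. Members called only with blocks or without SI replicate 3, and the partners Cox6b1 and Cox7a2, were named after their values were seen. Motifs were matched as letters. Figures were drawn with matplotlib 3.10.9 in Python 3.11.15.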

Additional observations from a re-analysis of the deposited data

Results flagged for a closer look

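Ndufaf3, an assembly factor of complex I, differed in direction between the sites from centre to border. As differences of log2(CPM + 0.5) between libraries of the same number, border minus centre was 0.47, 0.20 and 0.45 in SI replicates 1 to 3 (mean 0.374) and -0.57, -0.34 and -0.28 in LI replicates 1 to 3 (mean -0.398). All SI pairs moved up and all LI pairs moved down. The difference was not tested, Ndufaf3 was at 3.14 to 10.5 CPM in all libraries, and neither site's border comparison called it.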

How the results depend on the processing

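No value called with all libraries changed sign among the alternatives run, and Cox7a1 in border cells, not called with all libraries, was called in the other direction without SI replicate 3. Members called in SI row >3 against centre (3) became 11 with DESeq2, 6 with RLE factors, 10 with filterByExpr, 20 and 37 with a replicate block over all libraries or within sites, 25 with the latter without SI replicate 3, 6 without SI replicate 3 alone and 1 without replicate 2 at all sites. Of all genes, 13.2% were called in the reported fit, 15.6% with DESeq2, 13.2% with RLE factors, 25.8% with filterByExpr, 16.9% and 22.8% with the 2 blocks, 23.7% with the latter without SI replicate 3, 17.1% without SI replicate 3 alone and 4.77% without replicate 2. In LI row >3 against centre the replicate block within sites gave 10 in place of 0 (2.59% of all genes), and the block over all libraries gave 0 (0.131%). For SI against LI centre cells (2), RLE factors, the legacy fit, no filter and leaving out replicate 2 gave 0, the compared groups alone 1, the replicate block 18 (pairing of centre cells between sites not known) and the fit without SI replicate 3 gave 12. For border cells (0), DESeq2 gave 2, filterByExpr, the compared groups alone and library size alone 1 each, the replicate block 19 and leaving out SI replicate 3 20. For row >3 cells (2), DESeq2 gave 6, the compared groups alone and leaving out replicate 2 0, library size alone 10, no filter and subunits only 1 each, the replicate block 35 (pairing between sites not known) and leaving out SI replicate 3 24. Of all genes, 1.99% were called in centre cells in the reported fit, 2.03% with RLE factors, 1.42% with the legacy fit, 0.923% with no filter, 0.165% without replicate 2, 2.61% with the compared groups alone, 5.61% with the block and 10.9% without SI replicate 3. In border cells these were 1.76% as reported, 4.54% with DESeq2, 4.26% with filterByExpr, 1.17% with the compared groups alone, 1.59% with library size alone, 4.27% with the block and 8.11% without SI replicate 3. In row >3 cells they were 4.09% as reported, 6.3% with DESeq2, 3.83% with the compared groups alone, 0.83% without replicate 2, 3.83% with library size alone, 1.93% with no filter, 6.89% with the block and 12.2% without SI replicate 3. The interaction count went from 0 to 1 with blocks without SI replicate 3. The SI row >3 median went from 0.30 to 0.10 with library size alone. Leaving out 1 library gave 2 to 4 calls in SI row >3 against centre, 0 to 3 in the centre, 0 to 6 in the border (2 without LI border replicate 1, 6 without SI border replicate 3) and 0 to 10 in the row >3 site comparison (10 without SI row >3 replicate 3), with medians from 0.15 to 0.40, -0.64 to -0.38, -0.62 to -0.30 and -0.68 to -0.40. In the LI the row >3 median ran from 0.18 to 0.48, and the interaction median from -0.20 to 0.14. With lengths of the longest transcript the level medians were 28.1, 44.4 and 64.1 in complexes I, II and V. The replicate block changed no other count of members called by more than 1.5 times. Other causes were not tested. Depth limits Cox6b2 most, with 2 to 88 counts a library.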
